A study of Homo sapiens with 6 samples.

Results

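Interferon-stimulated genes were measured in PEO4, a cultured cell line derived from high-grade serous ovarian carcinoma, with and without an shRNA against SHMT1, the cytosolic serine hydroxymethyltransferase of the folate cycle. The set is a list of 43 gene symbols picked by name for their place in the interferon response, by a rule that uses no measured value, but with earlier results of these data known, so the shares set beside all genes below are descriptions. Of these, 42 had a probe under their symbol in the annotation used and 41 were bright enough to test, among 12790 genes tested in all. The groups were PEO4 cells with SHMT1 shRNA F12, PEO4 cells with SHMT1 shRNA F11 and PEO4 cells with a nonspecific (NS) shRNA, each measured on 2 Illumina HumanHT-12 arrays. All 3 groups carried a lentiviral shRNA and were selected on puromycin with no cloning step described, so none is an uninfected or untreated line, and no interferon was added in the protocols given. Each gene is described by the normalized intensity of its brightest tested probe, and a difference is said to pass where its limma p-value is under 0.05 after Benjamini-Hochberg adjustment across every probe tested. Whether the duplicate samples were grown as separate cultures is not given in the labels, so the p-values reflect only how far these duplicates differ, and that spread may be technical. In bulk RNA, fewer cells expressing a gene and less RNA per cell cannot be told apart.

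Cells that bind type I or type III interferon at their surface receptors activate the kinases JAK1 and TYK2, which phosphorylate STAT proteins. STAT proteins join IRF9 in a complex that enters the nucleus and binds the interferon-stimulated response element (ISRE) in the promoters of antiviral genes. Type II interferon acts mainly through STAT dimers at another element, the gamma-activated site (GAS). Many epithelial cancer lines keep a low level of these transcripts without added interferon.

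The targeted gene was taken as a check on the labels, and its fall passed with F11 only. SHMT1 had an intensity of 434 and 442 with F12, 291 and 342 with F11, and 542 and 544 with NS shRNA. The 3 groups did not overlap, with F11 lowest and NS highest. SHMT1 fell with F11 by 0.78 on the log2 scale (SE 0.0813, adjusted p = 0.00531), the log2 fold change with F12 was -0.31 (SE 0.0813, adjusted p = 0.213), and F12 exceeded F11 by 0.47 (SE 0.0813, adjusted p = 0.0196). The 2 dimmer probes of SHMT1 did not pass in any of these comparisons. Their log2 fold changes were -0.04 and -0.04 with F12, and -0.28 and -0.04 with F11.

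Most of the interferon-stimulated genes had lower fitted levels with F12 than with either other group, 39 of 41 against NS shRNA and 35 of 41 against F11. Against NS shRNA, 0 members rose and 6 fell with F12 (MX1, OAS2, OAS3, IFI44L, IFITM1 and BST2). With F11, 1 rose (MX1) and 3 fell (OASL, IFIT2 and RSAD2). Between F12 and F11, 16 members were lower with F12 and 2 were higher (OASL and IFIT2). MX1 passed with both shRNAs, in opposite directions.

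Promoter sequences are shown for 5 members that passed between the shRNAs. They are those with the largest differences among such members with only 1 promoter window. IFIT1, which did not pass between the shRNAs, was added. The sequences are the 250 bases upstream of the RefSeq gene start in GRCh38.p14, read in the direction of transcription, with the ISRE core in capitals. The core searched was GAAANNGAAA on either strand, which reads TTTCNNTTTC on the other. IFI44L lies on chromosome 1 (chr1:78620198-78620447, plus strand), IFI6 on chromosome 1 (chr1:27672193-27672442, minus strand) and IFITM1 on chromosome 11 (chr11:313790-314039, plus strand). BST2 lies on chromosome 19 (chr19:17405631-17405880, minus strand), OAS3 on chromosome 12 (chr12:112938224-112938473, plus strand) and IFIT1 on chromosome 10 (chr10:89392373-89392622, plus strand).
IFI44L: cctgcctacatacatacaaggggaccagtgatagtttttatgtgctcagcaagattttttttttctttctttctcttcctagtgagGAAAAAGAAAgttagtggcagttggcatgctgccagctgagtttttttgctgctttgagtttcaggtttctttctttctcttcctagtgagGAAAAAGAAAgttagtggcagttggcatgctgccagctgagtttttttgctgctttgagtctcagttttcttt
IFI6: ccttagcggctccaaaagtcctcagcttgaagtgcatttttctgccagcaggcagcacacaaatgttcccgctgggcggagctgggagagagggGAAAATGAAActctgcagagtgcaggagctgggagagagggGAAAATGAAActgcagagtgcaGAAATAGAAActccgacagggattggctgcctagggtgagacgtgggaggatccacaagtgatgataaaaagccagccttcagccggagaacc
IFITM1: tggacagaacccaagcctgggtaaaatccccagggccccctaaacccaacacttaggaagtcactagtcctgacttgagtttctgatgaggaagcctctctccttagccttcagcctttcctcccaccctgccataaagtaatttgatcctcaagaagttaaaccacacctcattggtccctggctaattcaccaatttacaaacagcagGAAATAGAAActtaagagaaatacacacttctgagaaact
BST2: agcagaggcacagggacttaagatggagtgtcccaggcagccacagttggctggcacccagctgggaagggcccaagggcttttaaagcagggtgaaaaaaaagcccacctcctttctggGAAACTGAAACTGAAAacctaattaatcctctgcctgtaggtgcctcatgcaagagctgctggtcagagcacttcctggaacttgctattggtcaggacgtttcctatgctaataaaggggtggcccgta
OAS3: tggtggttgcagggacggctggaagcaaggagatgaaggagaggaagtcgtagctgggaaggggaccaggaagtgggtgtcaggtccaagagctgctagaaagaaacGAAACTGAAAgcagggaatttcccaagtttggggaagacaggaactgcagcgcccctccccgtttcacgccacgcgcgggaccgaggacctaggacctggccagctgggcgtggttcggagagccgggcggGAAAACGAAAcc
IFIT1: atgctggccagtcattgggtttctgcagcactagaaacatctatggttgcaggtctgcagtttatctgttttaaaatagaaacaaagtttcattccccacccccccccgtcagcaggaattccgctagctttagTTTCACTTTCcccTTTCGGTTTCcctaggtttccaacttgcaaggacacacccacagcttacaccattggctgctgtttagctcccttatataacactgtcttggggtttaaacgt
IFI6 held 3 cores and IFI44L, OAS3 and IFIT1 held 2 each. The 2 cores of BST2 overlap, and IFITM1 held 1. In IFIT1 both cores run on the opposite strand.

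RefSeq windows were matched for 35 of the 43 members. An ISRE core was present in 24 of the 35 (68.6%), against 3.71% of the 27305 genes of the promoter table and 3.37% of the 10193 genes tested on the arrays that it holds. The core was found in 12 of 14 matched members that passed between F12 and F11 (85.7%) and in 12 of 20 that were tested and did not pass (60.0%). The GAS letters TTCNNNGAA, which read the same on both strands, were found in 12 of the 35 members (34.3%) and in 8.09% of all genes. A GAS match overlaps an ISRE core in BST2 and MX1, and also in IFI27 and EPSTI1, which did not pass in any comparison. In MX1 the core lies in 1 of the gene's windows. A match is a description of letters in this window, and the members were chosen by name as interferon-stimulated, so these shares carry no test. No window is shown for MX2, OAS2, OASL, IFIT2, IFITM2, USP18, IRF7 and TRIM22.

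**Figure D1:**
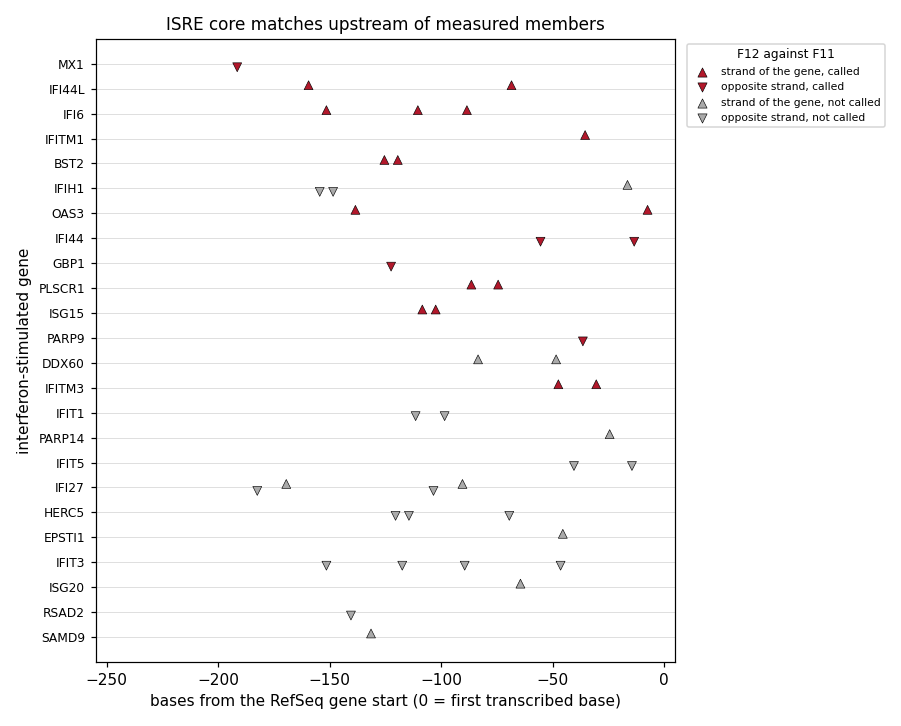
Positions of the ISRE core upstream of the 24 measured members that hold it, in bases from the RefSeq gene start, for members that passed between F12 and F11 (red) and members that did not (grey). Triangles pointing up are on the strand of the gene, those pointing down on the opposite strand, all windows of a gene are drawn on 1 line so that 1 core can appear more than once, and members of both colours carry the core.

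Across the 41 measured members, the median log2 fold change with F12 against NS was -0.22, against 0.00 over all tested genes, and 39 members had a negative value. The share that fell, 6 of 41 or 14.6%, stands beside 0.547% of all tested genes, and the share that rose, 0 of 41, beside 0.305%. At an unadjusted p under 0.05, limma gave 0 members higher and 25 lower with F12, beside 6.94% and 6.52% of all tested genes at that threshold. The arrays did not overlap in 34 members. Both F12 arrays were below both NS arrays in 33 members, where 22.9% of all tested genes had that order, and above them in 1, where 24% of all tested genes did.

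With F11 the median over the members was 0.04, against 0.01 over all tested genes, and 26 members had a positive value. The 1 member that rose and the 3 that fell (2.44% and 7.32%) stand beside 1.85% and 1.77% of all tested genes. At an unadjusted p under 0.05, limma gave 9 members higher and 6 lower with F11, beside 10.7% and 8.39% of all tested genes. Both F11 arrays were above both NS arrays in 12 members and below them in 9, where 24.5% and 20.3% of all tested genes had those orders, and 20 members overlapped.

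Between F12 and F11, a comparison that does not use the NS levels, the median was -0.31, against -0.00 over all tested genes. The 16 members that were lower with F12 are 39.0% of the 41, beside 4.13% of all tested genes, and the 2 that were higher are 4.88%, beside 3.45%. Where p was not adjusted (under 0.05), limma gave 2 members higher and 26 lower with F12, beside 11.1% and 13.2% of all tested genes. Both F12 arrays were below both F11 arrays in 30 members and above them in 3, where 26.9% and 24.6% of all tested genes had those orders. With the 2 shRNAs averaged against NS, 0 of the 41 members rose and 0 fell by limma, with 0 higher and 16 lower where p was not adjusted (under 0.05). In all tested genes that comparison called 0.211% higher and 0.438% lower, and 6.86% and 5.79% at the unadjusted threshold.

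The level of the set on each array shows the same order. The median over members of the log2 intensity minus the NS mean was -0.28 on each F12 array, 0.01 and 0.05 on the F11 arrays, and -0.03 and 0.03 on the NS arrays. Of the 41 members, 37 and 40 lay below the NS mean on the F12 arrays, 20 and 15 on the F11 arrays, and 26 and 15 on the NS arrays. In the median relative to the NS mean, both F12 arrays stood apart from the other 4, and the F11 and NS arrays overlapped in range. The subtracted mean is that of the same 2 NS arrays, so the NS values mirror each other by construction. Without the subtraction the median log2 intensity was 8.82 and 8.64 with F12, 8.99 and 8.98 with F11, and 8.85 and 8.96 with NS shRNA. There F12 was again lowest, and both F11 arrays lay above both NS arrays.

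**Figure D2:**
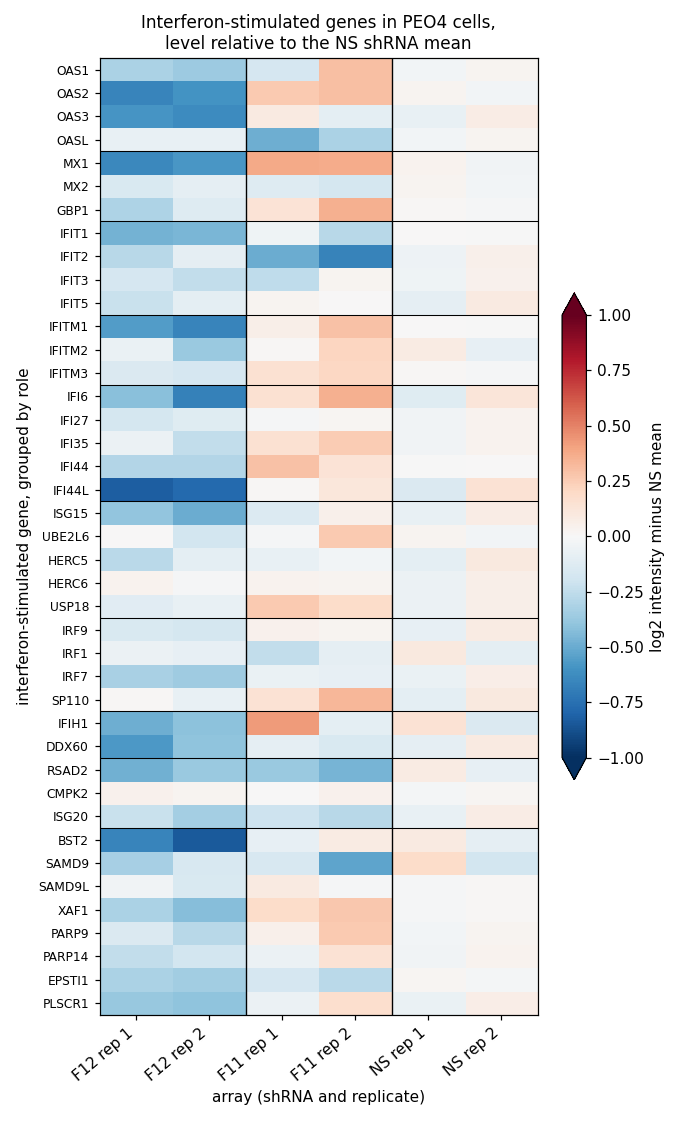
Log2 intensity of the 41 measured members on each of the 6 arrays, minus the mean of the 2 NS arrays, with members in rows grouped by role and separated by lines, and the F12, F11 and NS arrays in columns from left to right. Blue marks a level below the NS mean and red one above it, and both F12 columns are blue in most rows, while F11 columns hold both colours.

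The fitted directions against NS split the members into 3 sets. In 24 members the log2 fold change was negative with F12 and positive with F11, in 15 it was negative with both, in 2 (HERC6 and CMPK2) it was positive with both, and in 0 it was positive with F12 and negative with F11. Both comparisons use the same NS arrays, so an error in the NS mean shifts both values the same way. In 13 of the 24 members with opposite signs, at least 1 of the values was smaller than its standard error. In the other 11 (MX1, OAS2, GBP1, IFITM1, IFITM3, IFI6, IFI35, IFI44, USP18, XAF1 and PARP9) both exceeded it, and all 11 passed between F12 and F11. That comparison is the difference of the same 2 values. Picking members by those values therefore favours passing, and the count of 11 is no separate evidence of opposite movement. The members below NS with both shRNAs by more than the standard error were also 11 (OASL, MX2, IFIT1, IFIT2, IFIT3, IRF7, DDX60, RSAD2, ISG20, SAMD9 and EPSTI1). MX2 was bright enough to test only through its NS arrays, so its place in this set is not independent of the filter on dim probes. The split rests on the brightest probe of each gene. Among the 13 members with several tested probes, a dimmer probe gave other signs in IFI44L, IRF7, OAS1, OASL, PARP9 and UBE2L6. In GBP1, IFI6, IFIT1, IFIT3, OAS2, SP110 and XAF1 the signs stayed the same. The tested dimmer probe of PARP9 gave -0.32 with F12 and -0.11 with F11, and that of IRF7 -0.15 and 0.09. Without F11 replicate 2, or without NS replicate 1, the set with opposite signs held 19 members and the set below NS with both held 20.

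**Figure D3:**
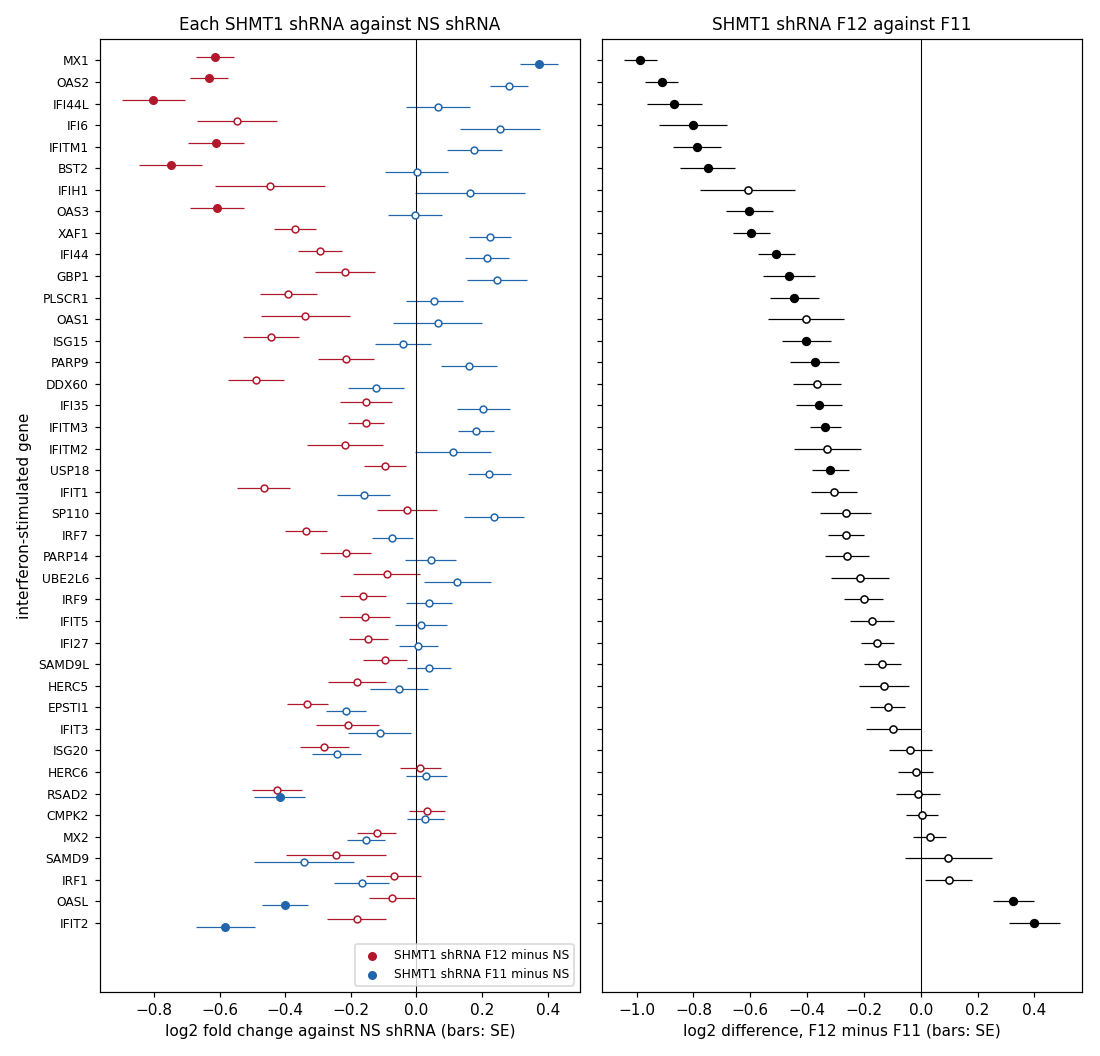
Log2 fold changes of the 41 measured members, ordered by the difference between the shRNAs. Left, F12 minus NS (red) and F11 minus NS (blue); right, F12 minus F11; bars are standard errors, filled points have an adjusted p under 0.05 in limma and open points do not. Red points lie left of 0 for 39 members, and the blue points lie on both sides.

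Among the GTPases, MX1 differed most between the shRNAs. MX1 is a dynamin-like GTPase that blocks RNA viruses early in their cycle, and its transcript is widely used as a readout of interferon. MX1 intensity was 2224 and 2324 with F12, 4523 and 4494 with F11, and 3562 and 3402 with NS shRNA. The 3 groups did not overlap, with F12 lowest and F11 highest. MX1 fell with F12 (log2 fold change -0.61, SE 0.0583, adjusted p = 0.00875) and rose with F11 (0.37, SE 0.0583, adjusted p = 0.0227). Between F12 and F11 the difference was -0.99 (SE 0.0583, adjusted p = 0.000388), a 1.98-fold lower level with F12.

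GBP1, a guanylate-binding GTPase that coats intracellular pathogens, had intensities of 323 and 367 with F12, 441 and 511 with F11, and 404 and 397 with NS shRNA. F12 lay below NS and F11 above it on every array. GBP1 was lower in F12 than in F11 cells (-0.46, SE 0.0913, adjusted p = 0.0311), as was its dimmer probe (-0.44, SE 0.0623, adjusted p = 0.00983), and neither shRNA passed against NS (adjusted p = 0.440 with F12 and 0.256 with F11). MX2, the related GTPase that acts on retroviruses at the nuclear pore, was close to background at 86.3 and 89.9 with F12, 87.6 and 84.8 with F11, and 97.7 and 94.0 with NS shRNA, and did not pass.

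The oligoadenylate synthetases sense double-stranded RNA and make the messenger that switches on RNase L. OAS2 intensity was 181 and 189 with F12, 343 and 352 with F11, and 291 and 281 with NS shRNA. The order of the groups was that of MX1, with no overlap. OAS2 fell with F12 (-0.63, SE 0.0582, adjusted p = 0.00852), had a value of 0.28 with F11 (adjusted p = 0.0585), and was lower in F12 than in F11 cells by 1.88-fold (log2 difference -0.91, SE 0.0582, adjusted p = 0.000454). Its dimmer probe gave -0.23 between the shRNAs (adjusted p = 0.0709).

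OAS3, the family member most needed to activate RNase L in human cells, had intensities of 475 and 463 with F12, 760 and 668 with F11, and 678 and 753 with NS shRNA. F12 lay below all other arrays, and F11 and NS overlapped. OAS3 fell with F12 (-0.61, SE 0.0828, adjusted p = 0.0316) and was lower in F12 than in F11 cells (-0.60, SE 0.0828, adjusted p = 0.00819). OAS1 had intensities of 298 and 289 with F12, 330 and 456 with F11, and 363 and 379 with NS shRNA, and its difference between the shRNAs did not pass on any of its 3 tested probes (adjusted p from 0.0507 to 0.147).

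OASL lacks the synthetase activity of its relatives and binds double-stranded RNA and RIG-I. Its intensity was 312 on both F12 arrays, 234 and 264 with F11, and 322 and 335 with NS shRNA. Here F11 was the low group and F12 lay just under NS. OASL fell with F11 (-0.40, SE 0.0711, adjusted p = 0.0352), had a value of -0.07 with F12 (adjusted p = 0.770), and was higher in F12 than in F11 cells (0.33, SE 0.0711, adjusted p = 0.0430). The dimmer probe gave -0.29 with F11 (adjusted p = 0.0493) and 0.31 between the shRNAs (adjusted p = 0.0241).

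The IFIT proteins bind viral RNA that lacks the host cap and hinder its translation. IFIT2 intensity was 774 and 881 with F12, 665 and 589 with F11, and 905 and 971 with NS shRNA. Both shRNAs lay below NS without overlap, F11 further than F12. IFIT2 fell with F11 (-0.58, SE 0.0899, adjusted p = 0.0214), had a value of -0.18 with F12 (adjusted p = 0.514), and was higher in F12 than in F11 cells (0.40, SE 0.0899, adjusted p = 0.0477). IFIT1 had 1219 and 1232 with F12, 1639 and 1399 with F11, and 1695 and 1691 with NS shRNA, and did not pass with F12 (-0.47, adjusted p = 0.0682) or between the shRNAs (-0.31, adjusted p = 0.0772). IFIT3 and IFIT5 did not pass in any comparison.

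The IFITM proteins sit in membranes and block the fusion of incoming viruses. IFITM1 intensity was 1679 and 1563 with F12, 2583 and 3025 with F11, and 2477 and 2471 with NS shRNA. F12 was the low group and F11 lay above NS on both arrays. IFITM1 fell with F12 (-0.61, SE 0.0844, adjusted p = 0.0326) and was 1.73-fold lower in F12 than in F11 cells (log2 difference -0.79, SE 0.0844, adjusted p = 0.00296). IFITM3, which guards endosomes, was among the brightest members at 5473 and 5387 with F12, 6717 and 6988 with F11, and 6094 and 5988 with NS shRNA. Its difference between the shRNAs was -0.34 (SE 0.0558, adjusted p = 0.0178), with neither shRNA passing against NS. IFITM2 gave -0.33 between the shRNAs (adjusted p = 0.168), and since the IFITM transcripts are close in sequence, it was not tested whether their probes tell them apart.

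IFI44L and IFI44 are related proteins whose transcripts are strongly induced by type I interferon. IFI44L intensity was 288 and 297 with F12, 515 and 553 with F11, and 462 and 564 with NS shRNA. F12 lay below all other arrays, and F11 lay within the range of NS. IFI44L fell with F12 (-0.80, SE 0.0968, adjusted p = 0.0195) by 1.74-fold and was lower in F12 than in F11 cells (-0.87, SE 0.0968, adjusted p = 0.00359). Its dimmer probe gave -0.11 with F12 against NS (adjusted p = 0.593) and -0.02 between the shRNAs (adjusted p = 0.921), so the 2 probes disagree.

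IFI44 had 554 on both F12 arrays, 830 and 748 with F11, and 675 and 683 with NS shRNA, with F12 below and F11 above NS. It differed between the shRNAs by -0.51 (SE 0.0660, adjusted p = 0.00649) and did not pass with F12 (adjusted p = 0.153) or F11 (adjusted p = 0.174) against NS. IFI6, a membrane protein of mitochondria and endoplasmic reticulum that restrains cell death and viral replication, had 1609 and 1344 with F12, 2386 and 2752 with F11, and 1970 and 2343 with NS shRNA. The groups followed the order of IFI44, and IFI6 was lower in F12 than in F11 cells (-0.80, SE 0.121, adjusted p = 0.0122). Its brightest probe did not pass with F12 against NS (-0.55, adjusted p = 0.146), whereas its dimmer probe did (-0.69, adjusted p = 0.0465), at 828 and 837 with F12, 1593 and 1993 with F11, and 1400 and 1282 with NS shRNA.

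IFI35, a leucine-zipper protein that modulates innate signalling, had 454 and 398 with F12, 527 and 564 with F11, and 461 and 485 with NS shRNA. F12 lay below and F11 above NS on every array, and the difference between the shRNAs was -0.36 (SE 0.0798, adjusted p = 0.0466). IFI27 was the brightest member, at 8556 and 8894 with F12, 9599 and 9792 with F11, and 9410 and 9911 with NS shRNA, and it did not pass.

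ISG15 is a ubiquitin-like protein that UBE2L6 and HERC5 attach to newly made proteins and USP18 removes. ISG15 intensity was 3216 and 3001 with F12, 3842 and 4387 with F11, and 4020 and 4440 with NS shRNA. F12 lay below the other arrays, which overlapped. ISG15 was lower in F12 than in F11 cells (-0.40, SE 0.0862, adjusted p = 0.0409) and did not pass with F12 against NS (-0.44, adjusted p = 0.101). USP18, which also dampens signalling at the interferon receptor, was dim at 102 and 105 with F12, 133 and 126 with F11, and 106 and 115 with NS shRNA. F11 was its high group, and F12 was lower than F11 by 0.32 on the log2 scale (log2 difference -0.32, SE 0.0651, adjusted p = 0.0349). UBE2L6, HERC5 and HERC6 did not pass in any comparison, with differences between the shRNAs from -0.21 to -0.02.

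Of the transcription factors, IRF9, IRF1, IRF7 and SP110 did not pass on their brightest probes, with values from -0.34 to -0.03 with F12 and from -0.17 to 0.24 with F11. IRF7, which amplifies interferon production, was nearest with F12, at 273 and 267 against 326 and 356 with NS shRNA (-0.34, adjusted p = 0.0914). IRF9, the DNA-binding part of the ISRE complex, had 1549 and 1520 with F12, 1774 and 1753 with F11, and 1621 and 1822 with NS shRNA. A second probe of SP110 was lower in F12 than in F11 cells (-0.35, adjusted p = 0.0456), and its brightest was not (-0.26, adjusted p = 0.155). STAT2 had no probe under its symbol in the annotation used and was not analysed here.

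The RNA helicases IFIH1 (MDA5, a sensor of long double-stranded RNA) and DDX60 did not pass. IFIH1 had 231 and 244 with F12, 435 and 302 with F11, and 357 and 293 with NS shRNA, and its difference between the shRNAs was large but variable (-0.61, SE 0.167, adjusted p = 0.0865). DDX60 gave -0.49 with F12 (adjusted p = 0.0738) and -0.37 between the shRNAs (adjusted p = 0.0544).

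RSAD2, or viperin, makes a nucleotide analogue that stops viral polymerases. Its intensity was 182 and 197 with F12, 197 and 184 with F11, and 269 and 241 with NS shRNA. The 2 SHMT1 shRNAs overlapped, and none of their 4 arrays reached either NS array. RSAD2 fell with F11 (-0.42, SE 0.0777, adjusted p = 0.0415), had nearly the same value with F12 (-0.43, SE 0.0777, adjusted p = 0.0828), and differed between them by -0.01 (SE 0.0777, adjusted p = 0.975). The average of the shRNAs against NS was -0.42 (SE 0.0673, adjusted p = 0.0640). CMPK2, the neighbouring mitochondrial nucleotide kinase, was dim at 105 and 104 with F12, 103 and 105 with F11, and 100 and 104 with NS shRNA, and the exonuclease ISG20 gave -0.28 with F12 and -0.24 with F11 without passing.

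BST2 (tetherin) holds budding virions at the cell surface. Its intensity was 171 and 151 with F12, 255 and 287 with F11, and 287 and 254 with NS shRNA. F12 lay far below the other arrays, and F11 and NS had the same mean of 271. BST2 fell with F12 (-0.75, SE 0.0958, adjusted p = 0.0240) by 1.68-fold and was lower in F12 than in F11 cells by the same amount (-0.75, SE 0.0958, adjusted p = 0.00610).

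XAF1, an antagonist of the caspase inhibitor XIAP, had 262 and 244 with F12, 371 and 393 with F11, and 324 and 329 with NS shRNA. The groups did not overlap, with F12 lowest and F11 highest, and the difference between the shRNAs was -0.60 (SE 0.0636, adjusted p = 0.00294). Its dimmer probe gave -0.17 (adjusted p = 0.283). PARP9, a macrodomain protein that works with an E3 ligase on histones and viral proteins, had 722 and 659 with F12, 831 and 961 with F11, and 785 and 815 with NS shRNA. It passed between the shRNAs by a narrow margin (-0.37, SE 0.0852, adjusted p = 0.0498), and its dimmer probe did not (-0.21, adjusted p = 0.234).

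PLSCR1, a lipid scramblase that also limits virus entry, had 225 and 220 with F12, 280 and 327 with F11, and 279 and 305 with NS shRNA. F12 lay below the other arrays, and PLSCR1 was lower in F12 than in F11 cells (-0.44, SE 0.0866, adjusted p = 0.0299). SAMD9, SAMD9L, PARP14 and EPSTI1 did not pass, and TRIM22 was not above background on any array (83.0 to 91.5). EPSTI1 had 112 and 110 with F12, 124 and 116 with F11, and 142 and 137 with NS shRNA, so that the arrays of both SHMT1 shRNAs were under the NS pair (average -0.27, SE 0.0530, adjusted p = 0.107).

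**Figure D4:**
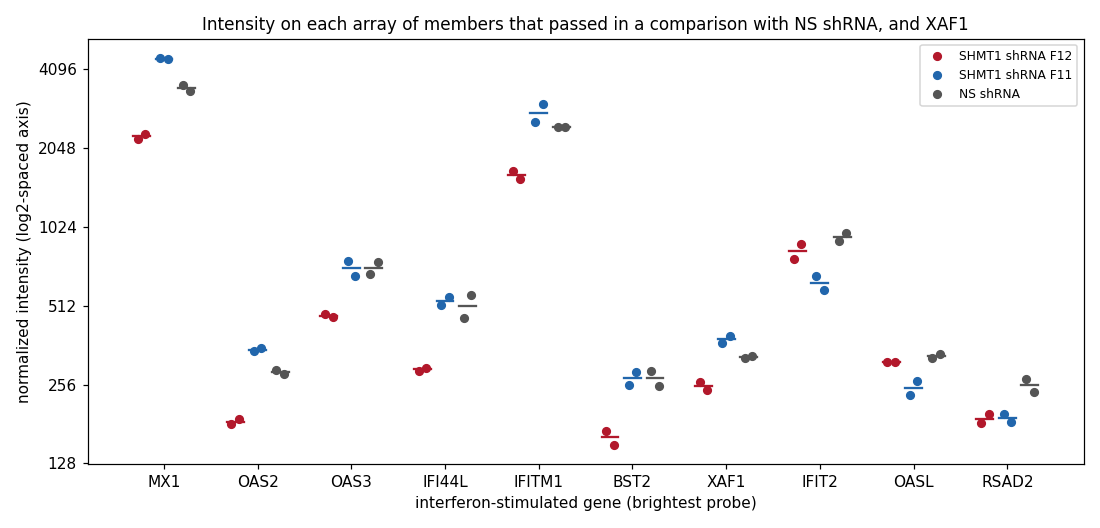
Normalized intensity on a log2-spaced axis of the 9 members that passed in a comparison with NS shRNA, and of XAF1, on the 2 arrays of each group (points) with the group mean (line), F12 in red, F11 in blue and NS in grey. F12 is the lowest group for the first 7 genes, F11 is lowest for IFIT2 and OASL, and F12 and F11 overlap below NS for RSAD2.

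The 22 members that passed in no comparison had log2 fold changes from -0.49 to 0.03 with F12, from -0.34 to 0.24 with F11 and from -0.61 to 0.10 between the shRNAs. Intensities include the array's background, so the changes of dim members are understated. Counting probes in place of genes, 7 of 58 tested member probes fell with F12 and 0 rose, 4 fell and 1 rose with F11, and 19 were lower and 3 higher in F12 than in F11 cells. Of all 22784 tested probes, 0.408% fell and 0.224% rose with F12, 1.36% fell and 1.24% rose with F11, and 3.06% were lower and 2.81% higher in F12 than in F11 cells.

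The calls rest on few arrays. With 1 array left out, the remaining array of its group is assumed to vary like the other groups. The 6 falls with F12 all lost significance without F12 replicate 1 (adjusted p from 0.169 to 0.307), F12 replicate 2 (0.149 to 0.333) or NS replicate 2 (0.0930 to 0.211), and only IFI44L passed without NS replicate 1 (adjusted p = 0.0468, against 0.111 to 0.267 for the other 5). Without F11 replicate 1 or F11 replicate 2 the number of members that fell with F12 was 14. The 4 calls with F11 were lost without F12 replicate 1 or 2 (adjusted p from 0.0515 to 0.107), NS replicate 1 (0.0988 to 0.222) or NS replicate 2 (0.0989 to 0.199). OASL was also lost without F11 replicate 1 (adjusted p = 0.0626) and RSAD2 without F11 replicate 2 (adjusted p = 0.0964). Between the shRNAs, MX1, OAS2 and XAF1 passed whichever array was left out (adjusted p at most 0.0142, 0.0157 and 0.0485). The 16 members lower in F12 than in F11 cells became 5 without F12 replicate 1 (MX1, OAS2, XAF1, IFITM1 and BST2), 3 without F12 replicate 2 and 10 without either NS array, and IFI35 did not pass with any array left out (adjusted p from 0.0538 to 0.271). OASL and IFIT2 lost their difference without F12 replicate 1 or 2 or either NS array (adjusted p from 0.0785 to 0.288), OASL also without F11 replicate 1 (adjusted p = 0.117) and IFIT2 without F11 replicate 2 (adjusted p = 0.0947).

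Of 21 interferon genes on the array, 1 was bright enough to test (IFNL1, a type III interferon), at 87.9 and 90.6 with F12, 98.0 and 99.5 with F11, and 110 and 96.0 with NS shRNA, and it did not pass. IFNL1 was near background, and both F12 arrays were under the background cut of 91.7, so it was tested only through the F11 and NS arrays. Among 13 tested receptor and JAK-STAT genes, 0 passed against NS with either shRNA by limma. At an unadjusted p under 0.05, 0 were higher and 1 lower with F12, beside 6.94% and 6.52% of all tested genes. With F11, 0 were higher and 4 lower, beside 10.7% and 8.39%. Between the shRNAs 4 were higher and 0 lower at that threshold, beside 11.1% and 13.2%. After adjustment 1 of the 13 was higher in F12 than in F11 cells (7.69%, beside 3.45% of all tested genes). The kinase JAK1 was higher in F12 than in F11 cells (0.43, adjusted p = 0.0318), at 398 and 408 with F12, 290 and 309 with F11, and 328 and 386 with NS shRNA. The receptor chain IFNAR1 gave 0.28 between the shRNAs (adjusted p = 0.0896). JAK1 ran in the opposite direction to most of the interferon-stimulated genes.

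Of 15 tested genes of nucleic acid sensing, 0 passed in any of these comparisons by limma. At an unadjusted p under 0.05, 0 were higher and 2 lower with F12, 2 higher and 1 lower with F11, and 0 higher and 4 lower in F12 than in F11 cells. At that threshold 6.94% and 6.52% of all tested genes were higher and lower with F12. The shares were 10.7% and 8.39% with F11, and 11.1% and 13.2% between the shRNAs. The regulator DHX58 (LGP2) gave -0.24 between the shRNAs (adjusted p = 0.0654) and the ligase TRIM25 -0.28 (adjusted p = 0.0700). Of 6 enzymes that act on double-stranded RNA, 0 passed by limma in any comparison. At an unadjusted p under 0.05, 1 was higher with F12 and 1 with F11, beside 6.94% and 10.7% of all tested genes. Between the shRNAs 1 was lower at that threshold, beside 13.2%.

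Of 9 tested targets of type II interferon, 2 rose with F11 (22.2%, beside 1.85% of all tested genes) and 3 were lower in F12 than in F11 cells (33.3%, beside 4.13%). GBP2, a relative of GBP1, had 458 and 456 with F12, 918 and 867 with F11, and 622 and 574 with NS shRNA. The order of the groups was that of MX1, with no overlap. GBP2 rose with F11 (0.58, adjusted p = 0.00683), had a value of -0.39 with F12 (adjusted p = 0.0625), and was lower in F12 than in F11 cells by 0.97 on the log2 scale (log2 difference -0.97, adjusted p = 0.000522). GBP5 also rose with F11 (0.32, adjusted p = 0.0490) and was lower in F12 than in F11 cells (-0.45, adjusted p = 0.00828), as was the chemokine CXCL10 (-0.36, adjusted p = 0.0174).

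A further list of 26 tested interferon-stimulated genes had 1 member that rose with F11 (3.85%, beside 1.85% of all tested genes). In that list 4 were lower in F12 than in F11 cells (15.4%, beside 4.13%), and 0 passed with F12 against NS by limma. At an unadjusted p under 0.05, 2 were higher and 6 lower with F12, beside 6.94% and 6.52% of all tested genes. LAMP3, a lysosomal membrane protein, had 122 and 127 with F12, 174 and 187 with F11, and 144 and 141 with NS shRNA. It rose with F11 (0.34, adjusted p = 0.0359) and was lower in F12 than in F11 cells (-0.54, adjusted p = 0.00380). HELZ2, PARP12 and IFI30 differed by -0.45, -0.40 and -0.37 (adjusted p = 0.0400, 0.0209 and 0.0488). Of 8 tested reference genes, 0 passed in any of these comparisons by limma. At an unadjusted p under 0.05, 2 were higher and 1 lower with F12, beside 6.94% and 6.52% of all tested genes. With F11, 0 were higher and 0 lower, beside 10.7% and 8.39%. Between the shRNAs 1 was higher and 0 lower, beside 11.1% and 13.2%.

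All 8 markers of serous ovarian epithelium were above background on all 6 arrays. Among them MUC16 fell with F12 (-0.55, adjusted p = 0.0198), and KRT7 and KRT8 fell with F11 (-0.59 and -0.61, adjusted p = 0.00558 and 0.0142). Between the shRNAs, KRT8, CDH1 and KRT7 were higher in F12 than in F11 cells (0.57, 0.36 and 0.34, adjusted p = 0.0113, 0.0382 and 0.0237) and MUC16 was lower (-0.66, adjusted p = 0.00237). Of the 8 markers, 12.5% fell with F12 and 25% with F11, beside 0.547% and 1.77% of all tested genes. Between the shRNAs 37.5% were higher and 12.5% lower with F12, beside 3.45% and 4.13%. Of 7 leukocyte markers, 4 passed the filter on dim probes, and PTPRC, CD3E and LYZ were not above background on any array. The summed intensity of the 7 was 875 to 897 with F12, 996 to 1088 with F11, and 953 to 1062 with NS shRNA. CD14 fell with F12 (-0.59, adjusted p = 0.0355), which is 25% of the 4 tested, beside 0.547% of all tested genes. Of 7 fibroblast and endothelial markers, 2 passed the filter, and the sum was 632 to 641 with F12, 618 to 635 with F11, and 609 to 615 with NS shRNA. Both sums include the array's background, which had its mode at 85.5 for a single probe. The part of these markers in the differences between groups was not tested.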

How the data were processed

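Total RNA of PEO4 cells was hybridized to Illumina HumanHT-12 arrays by the authors, who used GenomeStudio for the scans and the lumi package for quantile normalization, named without a version. The deposited values are linear normalized intensities, 1 for each probe on each array. A second deposited table was not used here, because its 12 value columns match no sample label. The log2 of the normalized intensities was taken without another normalization. Background was set at the mode of all values (85.5) with the spread of the values under it, and a probe was tested if 2 or more of the 6 arrays exceeded the 95th percentile of that background (91.7), which kept 22784 of 47321. Groups came from the sample labels.

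Differences were tested with lmFit and eBayes of limma 3.58.1 in R 4.3.3, with 3 groups in 1 fit (3 residual degrees of freedom, prior 4.28), two-sided, with Benjamini-Hochberg adjustment across every tested probe, at 0.05 and without a fold limit. The code of the fit was checked on data simulated from limma's own model of the spread. That check does not bear on whether the duplicates are independent. A gene is represented by its brightest tested probe. Probes were named from the platform annotation, in which 30112 had 1 symbol, 8 had several and 17201 had none. Promoters and gene starts came from RefSeq (GRCh38.p14). The members and lists were chosen with earlier results of these data known. Full values are given for members that passed in at least 1 comparison, and of the other lists for up to 4 genes, taken by adjusted p of F12 against F11; further members and SHMT1 are given beside them. Alternatives were no filter, a stricter filter, normexp, cyclic loess, a replicate block, a trended and robust eBayes, only the compared groups, the mean of the probes, a 1.5-fold limit and each array left out. The number of arrays limits the precision.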

Additional observations from a re-analysis of the deposited data

Results flagged for a closer look

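The effects of the 2 SHMT1 shRNAs differed in 18 interferon-stimulated genes by the limma test of F12 against F11. The log2 difference, F12 minus F11, was -0.99 for MX1, -0.91 for OAS2, -0.87 for IFI44L, -0.80 for IFI6, -0.79 for IFITM1, -0.75 for BST2, -0.60 for OAS3, -0.60 for XAF1 and -0.51 for IFI44. It was -0.46 for GBP1, -0.44 for PLSCR1, -0.40 for ISG15, -0.37 for PARP9, -0.36 for IFI35, -0.34 for IFITM3 and -0.32 for USP18. It had the opposite sign for OASL, at 0.33, and IFIT2, at 0.40. SHMT1 itself differed between the shRNAs by 0.47, with the lower level in F11 cells, and the part of the SHMT1 level in these differences was not tested.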

How the results depend on the processing

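Of 420 values of single genes under the alternatives, 275 kept their direction and side of the threshold, 145 kept the direction but no longer passed, and 0 turned. Without the filter, 2 members rose with F11. With normexp, the median with F12 was -0.28, 0 members rose with F11, 0 were higher with F12 than with F11, and 1 was lower in the average. With cyclic loess 1 member was higher with F12 than with F11, and with the trended and robust eBayes 1 was higher and 2 were lower in the average. With only the compared groups in the fit, 14 fell with F12, 0 rose and 0 fell with F11, and 0 were higher and 10 lower with F12 than with F11. With the mean of the probes, the median between the shRNAs was -0.26 and 1 member was lower in the average. With the 1.5-fold limit, 0 rose and 0 fell with F11, and 0 were higher and 8 lower with F12 than with F11. The cause of these shifts was not tested.

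With the replicate block, 3 members fell with F12, 0 rose and 1 fell with F11, and 0 were higher and 12 lower with F12 than with F11. The deviations of same-numbered arrays correlated at -0.31 (F12 and F11), -0.29 (F12 and NS) and 0.46 (F11 and NS). Only 1 of these exceeded 0.1, so the numbers were not taken to pair the samples.

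With each array left out, 0 members rose and 0 to 14 fell with F12, 0 to 1 rose and 0 to 2 fell with F11, and 0 to 1 were higher and 3 to 16 lower with F12 than with F11. In the average 0 rose and 0 to 3 fell. The medians ran from -0.28 to -0.22 with F12, from -0.010 to 0.072 with F11 and from -0.35 to -0.23 between the shRNAs. The members with opposite signs numbered 19 to 25, those below NS with both 13 to 20, those above with both 1 to 4, and those higher with F12 and lower with F11 0 to 1. Signal near background limits MX2, CMPK2, USP18 and TRIM22.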
